A study of Mus musculus with 2 samples.

Results

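Islet cells set the release of insulin, glucagon, somatostatin and pancreatic polypeptide by reading gut hormones, nutrients and nerve signals at their surface. The 10 receptors followed here, all G protein-coupled, were the receptors for glucagon-like peptide 1 (Glp1r), glucose-dependent insulinotropic polypeptide (Gipr) and glucagon (Gcgr), the lipid receptors Ffar1 and Gpr119, the muscarinic acetylcholine receptor Chrm3, the inhibitory receptors Adra2a, Galr1 and Sstr3 for adrenaline and noradrenaline, galanin and somatostatin, and the ghrelin receptor Ghsr. They were taken by gene symbol, and all 10 were found among the 31053 genes of the count matrices. The cells came from pancreatic islets of wild type female C57BL/6J mice. The multipara group had gone through 3 consecutive pregnancies starting at 9 weeks of age and was sampled 3 weeks after the last delivery, and the virgin group consisted of unmated littermates of matched age. Pups had been taken from the mothers' cages, so that the model is one of repeated pregnancy without nursing. Each group was a single 10x Chromium 3′ library, and the mice within a library were not told apart. Differences between the groups are therefore differences between 2 libraries, with no spread between animals to set them against.

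Receptors that couple to Gs, such as Glp1r, Gipr, Gcgr and Gpr119, raise cAMP and strengthen hormone release that glucose or another fuel has started. Ffar1 and Chrm3 couple mainly to Gq and act through phospholipase C and calcium stores, whereas Adra2a, Galr1 and Sstr3 couple to Gi, lower cAMP and restrain release. Ghsr is known in the islet as a receptor of delta cells, through which ghrelin acts on somatostatin release.

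Cells were assigned to a type by the hormone they held. A cell was called beta (Ins1 and Ins2), alpha (Gcg), delta (Sst) or PP (Ppy) when that hormone made up at least 2% of its unique molecular identifiers (UMIs, one per captured RNA molecule) and at least 5 times the UMIs of the other 3 hormones together. After the cell filter and doublet removal, 4312 virgin and 3356 multipara cells were kept. The virgin library gave 1023 alpha, 1926 beta, 158 delta and 84 PP cells, and the multipara library 636, 1988, 144 and 88. Summed over cells, these held between 1531505 UMIs in multipara delta cells and 52446819 UMIs in virgin beta cells. Markers that the gate did not use followed the labels: the 6 beta markers (Mafa and Nkx6-1 among them) summed to 1625 and 1483 CPM (a gene's share of all UMIs in a type, on a common scale for all sums) in beta cells of the virgin and multipara libraries and to at most 129 CPM in the other types, and Irx2, a transcription factor of alpha cells, stood at 104 and 93.4 CPM in alpha cells and at no more than 11.4 CPM in the other 3 types. The 3 delta markers (Hhex, Rbp4 and Pdx1) summed to 6037 and 6439 CPM in delta cells and to at most 1174 CPM in the other 3 types. The delta gate was narrow, since a further 195 virgin and 158 multipara cells held Sst together with Ppy and were kept apart. The libraries shared 7 cell barcodes, 2 of them among the gated cells.

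The beta gate was not equally clean in the libraries. Beta-gated cells with less than 10% of their UMIs from insulin were 6.49% of the virgin and 18.4% of the multipara beta cells, although they held only 0.536% and 3.00% of the beta UMIs. The 5 endothelial markers summed to 13.9 CPM in virgin and 150 CPM in multipara beta cells, and the 5 macrophage markers to 54.0 and 191 CPM. Levels that sum UMIs over cells give these shallow cells little weight, but shares of cells do not. In delta cells the 5 acinar markers summed to 114 and 137 CPM, of which Cela1 alone gave 108 and 124 CPM, and cells with both Sst and Ppy held Cela1 at 213 and 185 CPM. The endothelial markers summed to 94.1 (virgin) and 13.7 CPM (multipara) in delta cells and to 1.54 and 47.9 CPM in PP cells, and their part in the ratios between libraries in these types was not tested.

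The 10 genes lay on 9 chromosomes in GENCODE M21 (GRCm38). For Adra2a, Gpr119 and Ghsr, which led in beta, alpha and delta cells in the levels that follow, the 300 bases around the RefSeq transcription start are shown (GRCm38.p6, read 5′ to 3′ on the gene's strand). Capitals mark TGACG, the core of the cAMP response element, and TATAAA, the TATA motif.

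Adra2a, chr19:54045009-54045308, plus strand: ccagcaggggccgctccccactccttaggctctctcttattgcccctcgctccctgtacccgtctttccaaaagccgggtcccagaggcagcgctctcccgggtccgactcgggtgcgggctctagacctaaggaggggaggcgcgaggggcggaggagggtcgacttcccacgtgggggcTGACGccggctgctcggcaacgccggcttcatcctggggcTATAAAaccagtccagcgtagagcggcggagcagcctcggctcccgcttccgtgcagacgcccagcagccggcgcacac

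Gpr119, chrX:48674429-48674728, minus strand: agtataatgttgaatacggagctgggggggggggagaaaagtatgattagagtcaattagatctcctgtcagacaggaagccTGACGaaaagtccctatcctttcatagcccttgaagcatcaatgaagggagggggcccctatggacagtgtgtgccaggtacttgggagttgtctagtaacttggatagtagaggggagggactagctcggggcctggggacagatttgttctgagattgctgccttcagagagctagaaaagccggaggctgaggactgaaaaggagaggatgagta

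Ghsr, chr3:27371101-27371400, plus strand: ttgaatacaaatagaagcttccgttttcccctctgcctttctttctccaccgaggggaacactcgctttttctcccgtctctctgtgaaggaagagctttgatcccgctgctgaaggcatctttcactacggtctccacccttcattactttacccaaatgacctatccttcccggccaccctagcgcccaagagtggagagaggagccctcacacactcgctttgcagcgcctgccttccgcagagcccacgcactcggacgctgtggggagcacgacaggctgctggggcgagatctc

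TGACG was found on either strand in 20.8% and TATAAA in 13.6% of all 32851 RefSeq windows of this length. The Adra2a window held 1 of each, the Gpr119 window 1 TGACG, and the Ghsr window neither. The full site TGACGTCA, which contains TGACG, was in 1.79% of all windows and in none of the 9 windows that matched 8 of the receptors. The homeobox motif TAATTA was in 5.29% of all windows and likewise in none of these 9. The E-box CANNTG, found in 72.3% of all windows, occurred once each in the Adra2a and Ghsr windows and not in that of Gpr119. These matches describe letters in a window and not bound sites.

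Across the 4 types, 7 of the receptors were highest in beta cells in both libraries, Chrm3 was about equal in beta and PP cells, Gpr119 was highest in alpha cells and Ghsr in delta cells. This was tested with edgeR's quasi-likelihood test on 8 sums (2 libraries by 4 types), with the library as a block, TMM scaling and Benjamini-Hochberg adjustment over 12308 genes for each pair of types. All 10 receptors passed the filter on low counts, though Ghsr did so through delta cells and Glp1r through beta cells, where they are high. Calls that place Ghsr highest in delta cells or Glp1r highest in beta cells are therefore description and not support for that order. Types of one library share that library, and the replicates were the 2 libraries, so the p-values measure how far the differences between types repeat in a virgin and a multipara library.

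Between alpha and beta cells 9 of the 10 receptors differed at an adjusted p under 0.05, where 50.7% of all genes did. Beta and delta cells differed in all 10 receptors (39.5% of all genes) and beta and PP cells in 8 (31.8%). Alpha and delta cells differed in 6 (27.3%), delta and PP cells in 6 (13.7%) and alpha and PP cells in 3 (11.9%). These counts include 4 calls of Glp1r and 3 of Ghsr, which passed the filter through the type where each is high. The receptors were picked as islet receptors with earlier results of these data known, so their share of calls says nothing about receptors in general. Of the 42 calls, 35 could be computed as a CPM difference in each library alone, and all 35 had the same direction in both. The calls were made from these same 2 libraries, so the shared direction is no separate support. Fold differences from edgeR are on the TMM scale, which differs from CPM most for beta against delta cells, where it adds 0.94 (virgin) and 0.87 (multipara) log2 units. On unscaled totals the calls of Sstr3 (delta against each other type), Glp1r (delta against beta and PP cells), Gcgr (alpha against delta) and Ghsr (beta against PP) changed. The log2 difference of Glp1r between delta and PP cells was then called (edgeR adjusted p = 0.0172, against 0.110 with TMM).

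**Figure D1:**
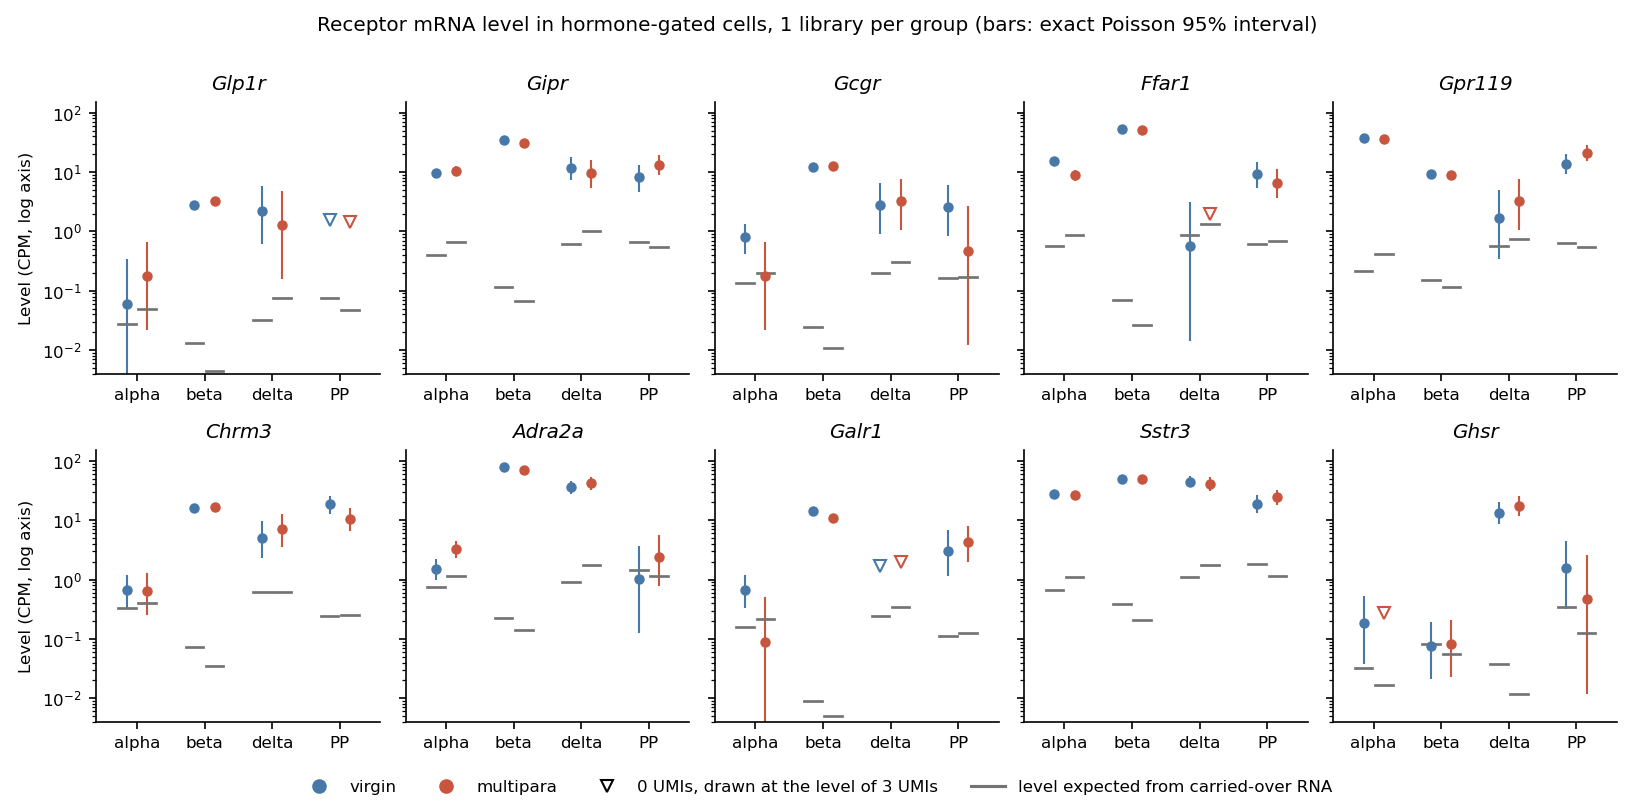
Level of each receptor (CPM, log axis) in alpha, beta, delta and PP cells, with blue points for the virgin and red points for the multipara library and bars for the exact Poisson 95% interval. Triangles stand for 0 UMIs and are drawn at the level 3 UMIs would give, and grey lines give the level expected from carried-over RNA. The points of the 2 libraries lie close together in beta cells, while Adra2a and Ffar1 in alpha cells differ between them.

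RNA set free by dissociation puts some UMIs of one cell type into droplets of another, and its size can be read from the hormones. Insulin UMIs reached 0.903% of their beta cell level in virgin alpha cells and 1.54% in multipara alpha cells. Multiplying each receptor's level in its source type by such a share gave the level that carry-over alone would bring, shown as grey lines in the plot of levels by type. It stayed at or under 1.86 CPM for every receptor and type.

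Glp1r, the receptor for the incretin that gut L cells release, was seldom captured. Beta cells held 146 UMIs in the virgin library (2.78 CPM, exact Poisson 95% interval 2.35 to 3.27) and 155 in the multipara library (3.19 CPM, 2.71 to 3.73). Alpha cells, with 1 and 2 UMIs, were 5.03 ± 0.54 log2 units below beta cells (SE, edgeR, adjusted p = 3.7e-05). Because Glp1r passed the filter through beta cells, its p-values are not read as support for beta cells being highest. Delta cells held 4 and 2 UMIs, and PP cells 0 in both libraries, so that beta cells stood at least 4.03-fold above PP cells when 3 counts over both libraries are set as the floor. The beta against delta difference was called on the TMM scale (1.62 ± 0.54 log2 units, edgeR adjusted p = 0.0394) but not on unscaled totals (0.71, adjusted p = 0.291) or with DESeq2 (1.61, adjusted p = 0.174). With so few delta UMIs the order of beta and delta cells was not settled.

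Gipr, the receptor of the other incretin, was present in all 4 types and highest in beta cells. Virgin and multipara beta cells stood at 34.1 CPM (32.5 to 35.7) and 30.9 CPM (29.4 to 32.5). Alpha cells held 9.68 and 10.5 CPM, delta cells 11.8 and 9.79 CPM and PP cells 8.22 and 13.3 CPM, each above the carry-over level of at most 1.03 CPM. Beta cells exceeded alpha cells by 2.08 ± 0.13, delta cells by 2.49 ± 0.21 and PP cells by 1.68 ± 0.20 log2 units (edgeR, adjusted p = 2.83e-07, 5.26e-06 and 0.000115). The other 3 types did not differ from each other beyond their spread (edgeR adjusted p from 0.126 to 0.356), and their intervals overlap in both libraries.

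Gcgr, through which beta cells read glucagon from neighbouring alpha cells, was a beta cell receptor in both libraries, with 637 UMIs (12.1 CPM) and 605 UMIs (12.4 CPM). The alpha cells that make glucagon held only 13 and 2 UMIs (0.792 and 0.181 CPM), and the second value is no higher than the carry-over level of 0.199 CPM. Alpha cells were 4.89 ± 0.32 log2 units below beta cells (edgeR adjusted p = 3.87e-07). Delta cells (5 and 5 UMIs) and PP cells (5 and 1) lay 2.94 ± 0.41 and 3.14 ± 0.48 log2 units below beta cells (edgeR adjusted p = 0.000207 and 0.000585). The difference of alpha from delta cells, at 1.95 ± 0.71 log2 units, missed the threshold (edgeR adjusted p = 0.0646) and passed it with DESeq2 (adjusted p = 0.0375).

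Ffar1 binds long-chain fatty acids and amplifies insulin release. Beta cells held 53.1 CPM (51.1 to 55.1) in the virgin and 50.2 CPM (48.2 to 52.2) in the multipara library. Alpha cells had 15.1 and 8.76 CPM and PP cells 9.25 and 6.63 CPM, each above the carry-over level of at most 0.858 CPM. Delta cells had 1 UMI and 0 UMIs, which does not exceed the 0.881 and 1.34 CPM that carry-over alone would bring. On the TMM scale beta cells exceeded alpha cells by 2.49 ± 0.13 and PP cells by 2.81 ± 0.23 log2 units (edgeR adjusted p = 7.39e-08 and 7.02e-06), and alpha and PP cells did not differ beyond their spread (0.32 ± 0.30, adjusted p = 0.577). The level in delta cells was below that in each other type (edgeR adjusted p from 2e-07 to 0.00168).

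Gpr119, a receptor for oleoylethanolamide and related lipids, had another order. Alpha cells held 603 UMIs (36.7 CPM, 33.8 to 39.8) in the virgin and 406 UMIs (36.7 CPM, 33.2 to 40.4) in the multipara library. PP cells came next with 13.9 and 21.3 CPM, then beta cells with 9.19 and 8.89 CPM, and delta cells with 3 and 5 UMIs. Alpha cells exceeded beta cells by 1.64 ± 0.13 and delta cells by 4.44 ± 0.31 log2 units (edgeR adjusted p = 2.04e-06 and 2.03e-06). The step from alpha to PP cells was smaller (0.76 ± 0.19, edgeR adjusted p = 0.0259) and was not called by DESeq2 (adjusted p = 0.133). PP cells exceeded beta cells by 0.87 ± 0.21 log2 units (edgeR adjusted p = 0.00806). It was the receptor for which all 6 pairs of types were called by edgeR.

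Chrm3 answers acetylcholine from parasympathetic nerves. Beta cells held 15.9 CPM (14.9 to 17.1) and 16.8 CPM (15.7 to 18.0), and PP cells 18.5 CPM (13.0 to 25.6) and 10.4 CPM (6.53 to 15.8) in the virgin and multipara libraries. Beta and PP cells changed places between the libraries and did not differ beyond their spread (0.29 ± 0.22 log2 units, edgeR adjusted p = 0.352). Alpha cells held 11 and 7 UMIs (0.670 and 0.632 CPM, against a carry-over level of 0.326 and 0.398 CPM) and stood 5.02 ± 0.24 log2 units below beta cells (edgeR adjusted p = 4.2e-08). Delta cells lay between, at 5.04 and 7.18 CPM. The gene spans 485362 bases on chromosome 13 and overlaps 4 annotated genes on its own strand, with which 3′ reads can be shared.

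Adra2a, which lets adrenaline and noradrenaline switch insulin release off, had the most UMIs of the 10 receptors. Virgin beta cells held 4048 UMIs (77.2 CPM, 74.8 to 79.6) and multipara beta cells 3454 (71.1 CPM, 68.7 to 73.5). Delta cells came second with 36.4 CPM (28.1 to 46.4) and 41.8 CPM (32.2 to 53.4). One multipara delta cell alone held 12 of that library's 64 delta UMIs. Alpha cells held 1.52 CPM (0.985 to 2.25) and 3.25 CPM (2.28 to 4.50), low but above their carry-over level of 0.753 and 1.14 CPM. PP cells, at 1.03 and 2.37 CPM, were not told apart from their carry-over level of 1.47 and 1.16 CPM. Beta cells exceeded delta cells by 1.84 ± 0.18 log2 units on the TMM scale (edgeR adjusted p = 1.66e-05) and by 1.08 and 0.77 log2 units as a plain CPM difference in the virgin and multipara libraries. Delta cells exceeded alpha cells by 3.59 ± 0.29 log2 units (edgeR adjusted p = 6.25e-06), and alpha and PP cells did not differ beyond their spread (adjusted p = 0.969).

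Galr1, a receptor of the neuropeptide galanin, was found in beta cells at 14.5 CPM (13.5 to 15.6) and 10.7 CPM (9.82 to 11.7). PP cells held 6 and 9 UMIs (3.08 and 4.26 CPM), above a carry-over level of at most 0.126 CPM. Alpha cells had 11 UMIs in the virgin library and 1 in the multipara library. No Galr1 UMI was seen in the delta cells of either library, and beta cells stood at least 14.04-fold above them with 3 counts over both libraries as the floor. Beta cells exceeded alpha cells by 5.28 ± 0.32 and PP cells by 1.85 ± 0.37 log2 units (edgeR adjusted p = 5.79e-07 and 0.00395).

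Sstr3, one of the receptors through which delta cell somatostatin restrains its neighbours, was spread most evenly. Beta cells held 48.7 and 49.1 CPM, delta cells 44.8 and 41.1 CPM, alpha cells 27.6 and 26.1 CPM and PP cells 19.0 and 24.2 CPM in the virgin and multipara libraries. The top type took only 34.8% and 34.9% of the level summed over types. Beta cells exceeded alpha cells by 1.24 ± 0.08 log2 units and PP cells by 1.26 ± 0.13 (edgeR adjusted p = 4.83e-07 and 3.51e-05). The place of delta cells depended on the scale. With TMM, delta cells were 1.09 ± 0.11 log2 units below beta cells (edgeR adjusted p = 2.69e-05) and did not differ from alpha or PP cells beyond their spread (adjusted p = 0.403 and 0.630). With unscaled totals, delta cells were not told apart from beta cells (0.18 log2 units, edgeR adjusted p = 0.191), whereas alpha cells were at -0.68 log2 units from delta cells and delta cells at 0.99 from PP cells (edgeR adjusted p = 0.00144 and 0.000626).

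Ghsr was the receptor of delta cells, which held 24 UMIs (13.4 CPM, 8.61 to 20.004) and 27 UMIs (17.6 CPM, 11.6 to 25.7). The far larger sums of beta cells held 4 UMIs in each library (0.0763 and 0.0823 CPM), which does not exceed the carry-over level of 0.0834 and 0.0550 CPM beyond counting error. Alpha cells held 3 and 0 UMIs and PP cells 3 and 1. Delta cells exceeded beta cells by 6.59 ± 0.66, alpha cells by 6.55 ± 0.77 and PP cells by 3.16 ± 0.80 log2 units (edgeR adjusted p = 2.06e-05, 9.53e-05 and 0.025). Because Ghsr passed the filter through delta cells, these p-values are not read as support for delta cells being highest. The cells with Sst and Ppy together, outside the delta gate, held 26 and 24 Ghsr UMIs (12.7 and 14.6 CPM), a level like that of the gated delta cells. Those cells also resembled delta cells in Adra2a (40.01 and 35.9 CPM) and in the absence or near absence of Galr1 (0 and 2 UMIs).

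Types differ in depth, and each cell was thinned to 5500 UMIs before shares of cells with a receptor UMI were compared. Shallower cells dropped out, which took 272 beta cells from the virgin library, 530 from the multipara library and at most 86 cells of any other endocrine type in a library, besides 136 endothelial and 177 lymphocyte-gated cells of the virgin library. The share of beta cells with Adra2a was then 31.7% in the virgin library (exact binomial 95% interval 29.5 to 34.1) and 27.8% in the multipara library (25.6 to 30.2), and in delta cells it was 21.7% (15.5 to 28.9) and 13.3% (8.10 to 20.2). Ffar1 was seen in 25.4% and 25.5% of beta cells and Sstr3 in 21.9% and 24.9%. Gpr119 was seen in 15.7% and 17.3% of alpha cells but 5.56% and 4.05% of beta cells. Ghsr was seen in 9.55% and 8.15% of delta cells and in at most 0.137% of beta cells. Without thinning, the Adra2a share of beta cells was 71.5% (virgin) against 55.4% (multipara), and 76.1% against 66.8% once cells with under 10% insulin UMIs were left out.

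Endothelial and lymphocyte-gated cells were set beside them as background, although some of the receptors exceeded their carry-over level there. In endothelial-gated cells at the same thinned depth the share ranged from 0 to 4.55% for all receptors but Chrm3, which was seen in 7.95% of 88 virgin cells (3.26 to 15.7). In lymphocyte-gated cells of the virgin library it ranged from 0 to 1.39% for all but Ffar1, which was seen in 8.33% of 72 cells (3.12 to 17.3). Before thinning, the median depth was 4866 UMIs in virgin endothelial and 3745 UMIs in virgin lymphocyte-gated cells, against 29330.5 in virgin beta cells. The shares of Glp1r, Gcgr and Galr1 in alpha, delta and PP cells, and of Adra2a in alpha and PP cells, lay within this range. So did those of Glp1r in beta cells (1.39% and 2.33%), of Gpr119 in multipara beta cells (4.05%) and in delta cells (0.637% and 1.48%), of Ffar1 in delta cells and multipara PP cells (2.33%), of Ghsr outside delta cells and of Chrm3 in alpha cells. The share of Gipr in PP cells (3.75% and 3.49%) is not told apart from this range. Shares within the range are not read as expression on their own. Its upper end came from endothelial-gated cells, with Adra2a (4.55%, virgin) and Gipr (4.35%, multipara). In these cells Adra2a stood at 5.18 CPM against a carry-over level of 1.21 CPM, and Gipr at 3.79 against 0.661 CPM. The range is therefore not a pure background for other receptors. Glp1r and Gpr119 had no UMI in endothelial or lymphocyte-gated cells. In summed UMIs, Glp1r in beta cells (2.78 and 3.19 CPM) exceeded its carry-over level of at most 0.0134 CPM. So did Gpr119 in multipara beta cells (8.89 against 0.114 CPM) and Galr1 in PP cells. The shares of Chrm3 in beta, delta and PP cells are not read against the endothelial value, which differs from that in lymphocytes.

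**Figure D2:**
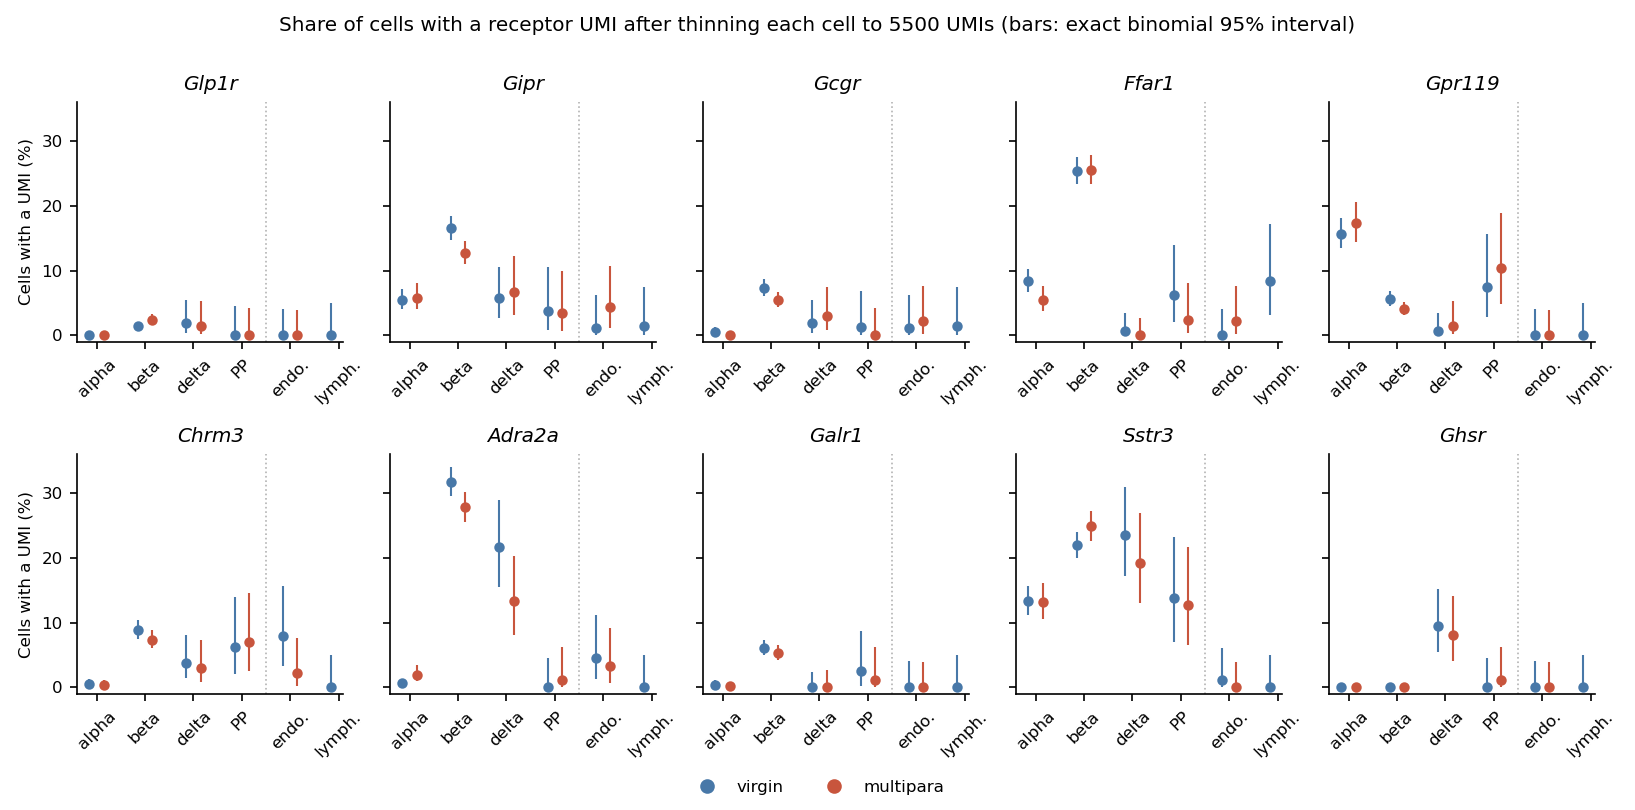
Share of cells with at least 1 UMI of each receptor (%) after thinning to 5500 UMIs, by cell type, in the virgin (blue) and multipara (red) libraries, with exact binomial 95% intervals. The endothelial and lymphocyte-gated cells right of the dotted line are set beside them as background, and the 8 multipara lymphocyte-gated cells are left out. Beta cells reach 31.7% for Adra2a, and delta cells are the only type well above background for Ghsr.

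Receptors were counted together in single cells at the same thinned depth. A virgin beta cell had UMIs of 1.25 of the 10 receptors on average and a multipara beta cell of 1.16, with at least 3 receptors in 10.8% and 10.6% of them. Alpha cells averaged 0.451 and 0.443, delta cells 0.694 and 0.563 and PP cells 0.413 and 0.395. Cells without a UMI of any of the 10 made up 24.3% (virgin) and 30.7% (multipara) of beta cells, which at 5500 UMIs a cell limits detection and does not show absence.

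The second question was how the receptors differed between the virgin and multipara libraries within a type. With 1 library per group there is no test. A receptor was counted as past 1.5-fold when the CPM ratio reached that size and the UMIs of both libraries added up to 50 or more, and its interval covers counting error only. In beta cells 9 receptors had enough UMIs and none was past 1.5-fold, where 12.0% of 12572 genes were. With each cell weighted equally Galr1 was past it (-0.72), where 23.5% of genes were. Their log2 ratios (multipara over virgin) ranged from -0.44 to 0.20 with a median of -0.05, and the median of all genes was -0.03.

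Galr1 had the lowest ratio in beta cells, at -0.44 (-0.60 to -0.28) on 762 virgin and 521 multipara UMIs. It was lower in the multipara library also at the 10% insulin gate and in each of the 13 alternatives, between -0.26 and -0.72. Gipr (-0.14, -0.24 to -0.04), Adra2a (-0.12, -0.18 to -0.05) and Ffar1 (-0.08, -0.16 to -0.00) had intervals below 0 as well. Among all genes in beta cells, 28.7%, 32.9% and 39.9% had a lower ratio than Gipr, Adra2a and Ffar1, respectively. Over the 13 alternatives the Gipr ratio ran from -0.44 to 0.48, so its direction depended on the setting. Those of Adra2a (-0.24 to -0.09) and Ffar1 (-0.34 to -0.05) stayed below 0. Glp1r (0.20, -0.14 to 0.53), Gcgr (0.04), Gpr119 (-0.05), Chrm3 (0.08) and Sstr3 (0.01) had intervals that include 0. Each of these 9 intervals lies within 1.5-fold, except for the lower bound of Galr1.

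In alpha cells 5 receptors had enough UMIs and 2 of them were past 1.5-fold, where 5.21% of 10712 genes were. Ffar1 had 248 UMIs in virgin alpha cells and 97 in multipara alpha cells, which gave -0.79 on the log2 scale (-1.14 to -0.44) where the median gene stood at -0.09. The thinned share of alpha cells with Ffar1 was 8.32% (6.64 to 10.3) against 5.49% (3.81 to 7.63). The direction and the size past 1.5-fold held in each alternative, from -0.69 to -0.83. The Ffar1 level expected in alpha cells from carry-over was 0.568 CPM in the virgin and 0.858 CPM in the multipara library, against the measured 15.1 and 8.76 CPM.

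Adra2a went the other way in alpha cells. Its log2 ratio was 1.09 (0.32 to 1.89), on 25 and 36 UMIs at 1.52 and 3.25 CPM. Its carry-over level also went from 0.753 to 1.14 CPM, and 1 multipara alpha cell held 4 of the UMIs. When the gate asked for 10 times the other hormones, too few UMIs were left for it to be counted. Gipr (0.11, -0.24 to 0.47), Gpr119 (-0.00, -0.19 to 0.18) and Sstr3 (-0.08, -0.30 to 0.14) in alpha cells had intervals within 1.5-fold that include 0.

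**Figure D3:**
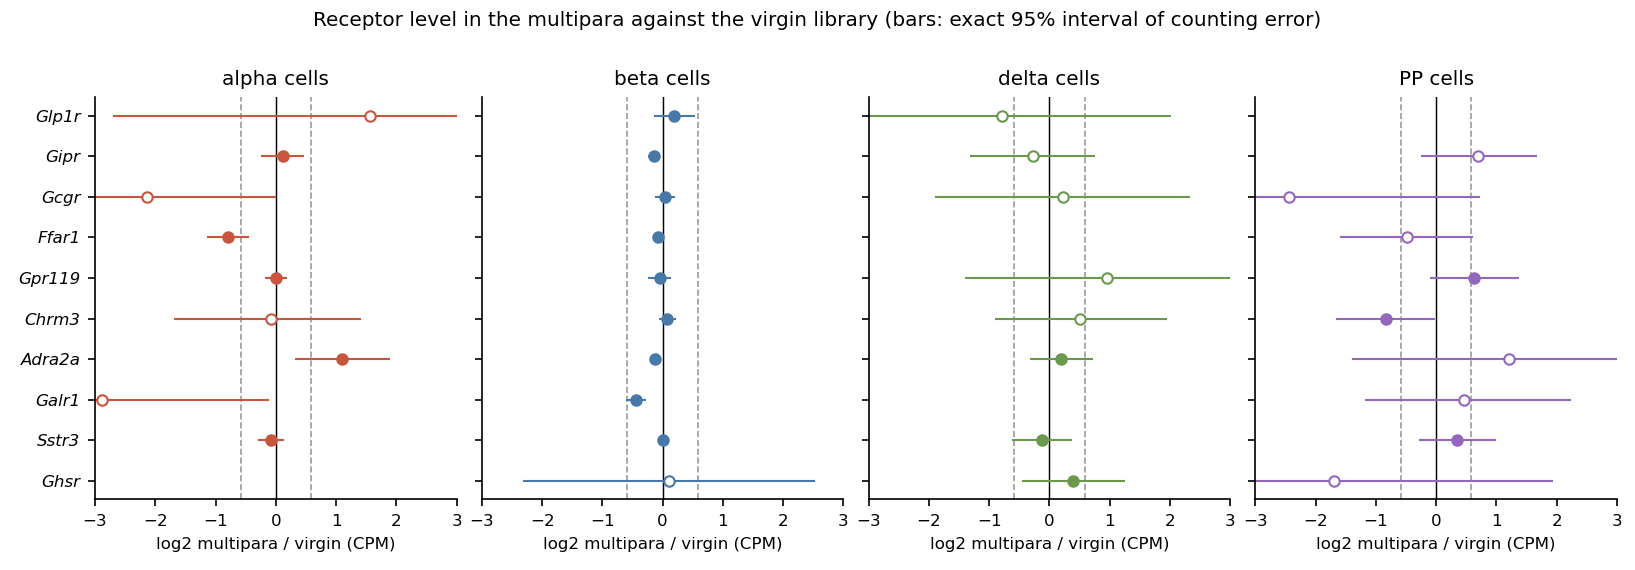
Log2 ratio of CPM, multipara over virgin library, for each receptor in the 4 cell types, with bars for the exact 95% interval of counting error, clipped at 3. Filled points rest on 50 UMIs or more over both libraries, open points on fewer, and dashed lines mark 1.5-fold. Beta cell points lie within the lines, and Ffar1 (-0.79) and Adra2a (1.09) in alpha cells lie outside them.

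Delta and PP cells held few UMIs. In delta cells Adra2a (0.20, -0.32 to 0.72), Sstr3 (-0.12, -0.62 to 0.37) and Ghsr (0.39, -0.46 to 1.25) had enough UMIs, and none was past 1.5-fold, where 7.45% of 6480 genes were. Their intervals reach past 1.5-fold, so that a difference of that size is not excluded at this depth. In PP cells 2 of 3 were past it, where 7.33% of 5037 genes were. The log2 ratio of Chrm3 was -0.83 (-1.66 to -0.02) on 36 and 22 UMIs, and that of Gpr119 was 0.62 (-0.10 to 1.37) on 27 and 45. The Chrm3 difference turned to 0.16 on 11 UMIs when cells were thinned to 5500 UMIs, and with the gate at 10 times the other hormones Gpr119 was no longer past 1.5-fold. Sstr3 in PP cells stood at 0.35 (-0.29 to 0.998).

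**Figure D4:**
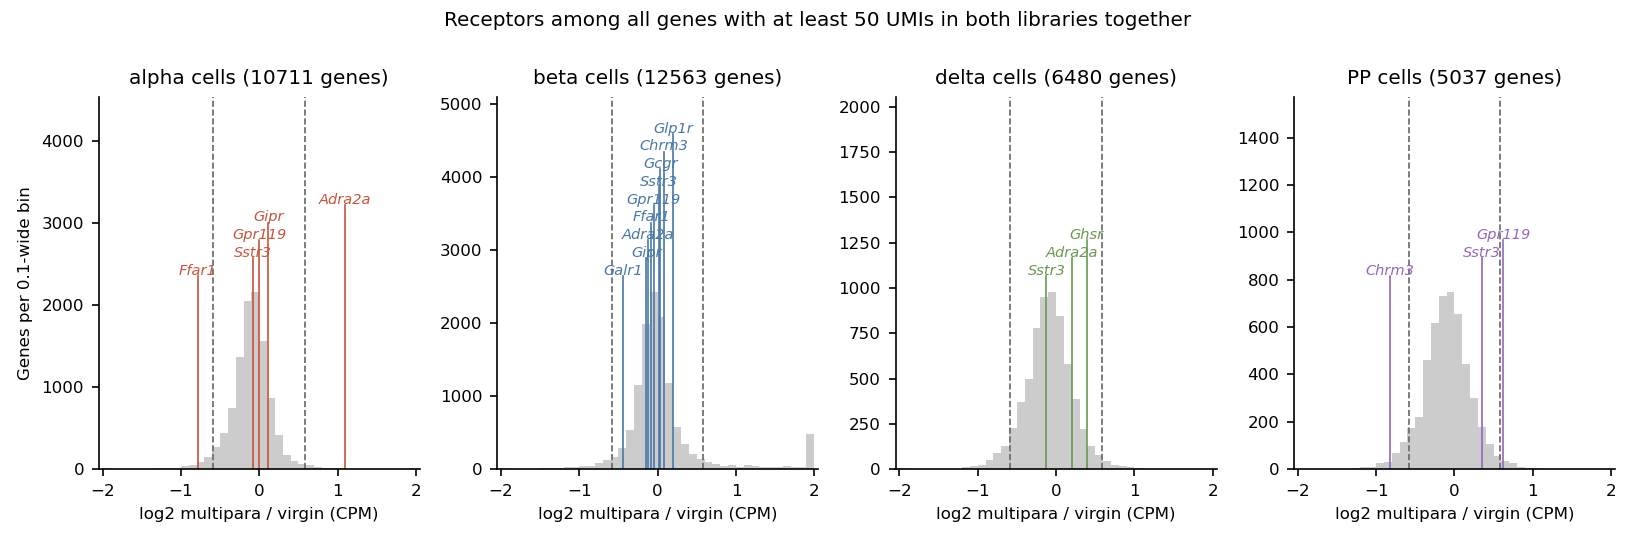
Number of genes per 0.1-wide bin of the log2 ratio (multipara over virgin) in each cell type, for genes with at least 50 UMIs over both libraries and at least 1 in each, with ratios past 2 drawn in the end bins. Coloured lines mark the receptors and dashed lines 1.5-fold. Most receptors lie in the body of the distribution, with Ffar1 and Adra2a in alpha cells in its tails.

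The other receptors of islet cells, a list of 48 genes, and 60 signalling partners (G protein subunits, adenylyl cyclases, RGS proteins and others) were read in the same way. Between libraries, 2 of 18 other receptors with enough UMIs in alpha cells were past 1.5-fold, both lower in the multipara library. Sstr2, a somatostatin receptor at a lower level than Sstr3 in these cells, had 271 and 109 UMIs (-0.75, -1.08 to -0.42). Adrb1, an adrenaline receptor that couples to Gs, had 216 and 90 UMIs (-0.69, -1.07 to -0.33). The list's median in alpha cells was -0.01. Of 49 signalling partners in alpha cells 2 were higher and 3 lower, with a median of -0.10. Of all genes in alpha cells 5.21% were past 1.5-fold. Among the lower ones were Ramp1, a partner of the calcitonin receptor family (-1.11, -1.47 to -0.77), and the cyclase Adcy3 (-0.74, -1.36 to -0.15).

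In beta cells 7 of 23 other receptors were higher and 3 lower, with a median of -0.03, and 5 of 54 signalling partners were higher and 1 lower, with a median of -0.02. Calcrl, Ptger4, Akap12, Ramp3, Rapgef3, Arrb1 and Ramp2 had log2 ratios from 1.27 to 3.39, and none of these 7 was past 1.5-fold with enough UMIs once cells with under 10% insulin UMIs were left out. Calcrl (2 and 8 UMIs) and Ramp3 (15 and 30 UMIs) then still had log2 ratios of 2.15 and 1.15, on too few UMIs to be counted. The endothelial and macrophage markers were summed at the 2% gate only, where they too were higher in multipara beta cells. Their part in these ratios was not tested. At the 10% gate 3 of 22 receptors were higher and 2 lower, and 0 of 50 partners were higher and 2 lower. Of all genes 7.15% were past 1.5-fold at that gate, against 12.0% without it. Oxtr, the oxytocin receptor, kept its difference, with 64 and 136 UMIs (1.197, 0.76 to 1.65) and 1.26 at the 10% gate. Ptger3, a Gi-coupled prostaglandin receptor, was lower, with 54 and 17 UMIs (-1.56, -2.44 to -0.75) and -1.49 at the 10% gate.

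In delta cells Ffar2, a short-chain fatty acid receptor, was higher in the multipara library (0.73, 0.24 to 1.23), as the only one of 7 other receptors. Rgs4 (0.80, 0.58 to 1.02), Rgs16 (0.66, 0.23 to 1.09) and Gna12 (0.93, 0.13 to 1.77) were the higher ones and Ramp1 (-0.67, -0.99 to -0.36) the lower one of 40 partners. In PP cells 0 of 6 receptors and 1 of 31 partners were past 1.5-fold. Of all genes 7.45% were past it in delta cells and 7.33% in PP cells. Of 9 listed ligands of islet receptors, the gate hormones aside, 3 or fewer had enough UMIs in any type. Ucn3, a beta cell product, was higher in multipara alpha cells at 4.88 CPM against 2.68 CPM in virgin ones (44 and 54 UMIs in virgin and multipara, 0.86, 0.26 to 1.47). Beta cells held 234 and 247 CPM of it, and the insulin carried into alpha cells was 0.903% (virgin) and 1.54% (multipara) of the beta level, and its part in this ratio was not tested. Cartpt was lower in multipara beta cells (120 and 38 UMIs, -1.55, -2.12 to -1.01).

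Between types, 25 other receptors and 55 partners passed the filter and were tested by edgeR for each type against the mean of the other 3. In alpha cells 8 receptors were higher and 3 lower, in beta cells 7 and 8, in delta cells 9 and 3 and in PP cells 2 and 1, where 29.8%, 48.3%, 25.1% and 11.0% of all genes were called. Among the genes counted, Adrb1, Ffar3 and Crhr2 passed the filter on low counts through the type where they were high. Their calls are therefore description and not support for that order. Several of the other receptors had levels as unlike between types as the 10 receptors did. Sstr2 stood at 16.5 and 9.85 CPM in alpha cells and 0.0953 and 0.0206 CPM in beta cells, Avpr1b, a vasopressin receptor, at 19.6 and 14.9 CPM against 0.0763 and 0.0412 CPM, and Adrb1 at 13.2 and 8.13 CPM against 0.0191 and 0.123 CPM. The adrenaline receptors Adrb1 and Adra2a, which act in opposite ways on cAMP, were highest in alpha cells and in beta cells, respectively. Ffar3 was highest in beta cells (5.28 and 5.62 CPM) with no UMI in delta cells. Crhr2 (6.16 and 2.61 CPM, on 11 and 4 UMIs) and Cnr1 (5.60 and 6.53 CPM) were highest in delta cells, where 3 UMIs give 1.68 and 1.96 CPM. In PP cells P2ry1 was low (1.03 and 0.474 CPM), under the 1.54 and 1.42 CPM that 3 UMIs give there.

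Of the partners, 12 were higher and 12 lower in alpha cells, 20 and 14 in beta cells, 18 and 9 in delta cells and 2 and 7 in PP cells. The receptor kinase Grk5 (8.01 and 9.98 CPM) and the IP3 receptor Itpr2 (8.68 and 10.2 CPM) were higher in beta cells by 3.45 and 3.03 log2 units (edgeR adjusted p = 5.57e-07 and 1.81e-06), and Itpr1 was lower there at -2.22 (edgeR adjusted p = 3.13e-09). Ramp1 was higher in delta cells by 2.38 log2 units (edgeR adjusted p = 6.18e-07), and Gnai1, a Gi subunit, in PP cells by 0.87 (edgeR adjusted p = 0.00399), each against the mean of the other 3 types. The level of Gnai1 was 40.1 and 28.4 CPM in PP cells but higher still in alpha cells, at 77.8 and 59.6 CPM.

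The genes most like each receptor were found by Pearson correlation of log2(CPM + 1) over the 8 sums, among 8991 genes. These points share libraries and depth, and r is a description. Gpr119 was most like Vipr1 (r = 0.99), a receptor of vasoactive intestinal peptide, Dock11 (0.98) and Klf4 (0.97). Galr1 was most like Nkx6-1 (0.97), a transcription factor of beta cells, and Adra2a like Ttyh2 (0.99), Prkar2b (0.98), a regulatory subunit of protein kinase A, and Entpd3 (0.98). Ghsr was most like 4930539E08Rik, Rgs2 and Rasgef1a (0.999, 0.997 and 0.996), and Ffar1 like Glrx (0.96), Slc35d3 (0.96) and Rcan2 (0.95). Gcgr was most like Rnf182 (0.98) and Chrm3 like Enpep (0.99).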

How the data were processed

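Islets were dissociated with trypsin and sequenced with the 10x Chromium 3′ chemistry, with 1 library for virgin and 1 for multipara mice. The deposited values are raw UMI counts per gene and barcode. Per the file headers and the submitters' processing notes, the authors used Cell Ranger 3.1.0, and the notes name GRCm38, mm10 and Seurat 3.0. The libraries held 94853806 and 82503776 UMIs in 5463 and 5075 barcodes.

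Cells with more than 200 and under 6000 genes, under 60000 UMIs and under 10% mitochondrial UMIs were kept, as in the study, and doublets called by Scrublet (scanpy 1.11.5, seed 1) were taken out (79 of 4391 virgin and 18 of 3374 multipara cells, below the 3.51% and 2.70% given as prior rates, so that some can remain). Types were set by hormone UMIs as given in the text, endothelial cells by 3 of 5 and lymphocytes by 2 of 6 markers without a hormone at 2%, and UMIs were summed per type and library. Levels have exact Poisson, ratios exact conditional binomial and shares exact Clopper-Pearson 95% intervals. They cover counting error only. Types were compared with edgeR 4.0.16 (glmQLFit and glmQLFTest, 3 residual degrees of freedom, filterByExpr) after a check on simulated counts, and DESeq2 1.42.0 served as an alternative. Python 3.11.15, numpy 2.4.6, pandas 2.3.3, scipy 1.17.1, matplotlib 3.10.9 and R 4.3.3 were used. Promoter windows came from RefSeq and matched 8 of the 10 receptors.

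The receptors and gene lists were chosen with earlier results of these data known. Besides the 10 receptors, the genes named were at most 5 per type and list past 1.5-fold with an interval off 0, the 3 most different per type and list among those called between types, and up to 3 genes most like each receptor (searched where the 8 sums averaged 5 CPM or more). Some genes that this rule covers are not reported here.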

Additional observations from a re-analysis of the deposited data

Results flagged for a closer look

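Adra2a differed between multipara and virgin libraries in opposite directions in alpha cells (1.09, 0.32 to 1.89) and beta cells (-0.12, -0.18 to -0.05), a gap of 1.21 on the log2 scale. With 1 library per group the gap was not tested, and the alpha value rests on 25 and 36 UMIs. The beta value lies in the body of all genes, of which 32.9% had a lower ratio in beta cells.

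Some receptors had UMIs in cells outside the islet endocrine gates, above the level that carried-over RNA would bring. Ffar1 stood at 12.5 CPM in lymphocyte-gated cells of the virgin library (20 UMIs in 16 of 249 cells, at most 2 in a cell), against a carry-over level of 0.819 CPM. The multipara library held only 8 such cells, none with a Ffar1 UMI, which allows a share of up to 41.0% by the exact interval of the 7 cells left after thinning. Chrm3 stood at 11.1 CPM in virgin endothelial-gated cells (15 UMIs in 14 of 224 cells), against 1.89 CPM in multipara ones (2 of 99 cells). Adra2a stood at 5.18 CPM in virgin and 6.62 CPM in multipara endothelial-gated cells (7 UMIs each), against carry-over levels of 1.21 and 1.46 CPM. Gipr stood at 3.79 CPM in multipara endothelial-gated cells (4 UMIs in 4 of 99 cells).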

How the results depend on the processing

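Of 60 tests between types 42 were called, and the other settings called between 40 and 45, among them DESeq2, median-of-ratios scaling, unscaled totals, no filter on low counts, no library block, other hormone gates, no cell filter and doublets kept. Calls that turned on a setting were those of Glp1r (alpha or beta against delta, delta against PP), Gcgr (alpha against delta), Ghsr (alpha or beta against PP), Gpr119 (alpha against PP) and, on unscaled totals, Sstr3 (delta against each other type). No called difference changed direction, but all settings draw on the same 2 libraries. The 7 receptors highest in beta cells in both libraries became 6 with the gate at 10 times the other hormones. Leaving out a library leaves no residual degrees of freedom, so that these are values with no test.

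Between the libraries 4 receptors were past 1.5-fold over the 4 types. The count was 2 with the gate at 10 times the other hormones (Ffar1 in alpha and Chrm3 in PP cells), 2 when cells were thinned to 5500 UMIs (Ffar1 in alpha and Glp1r in beta cells) and 1 with a minimum of 100 UMIs (Ffar1 in alpha cells). It was 5 with each cell weighted equally, which added Galr1 in beta cells. It was also 5 with a minimum of 20 UMIs, which added Gipr in PP cells. The share of all genes past 1.5-fold moved with the setting too. With each cell weighted equally it was 23.5% in beta cells, against 12.0% without. With a minimum of 20 UMIs it was 16.2% in PP cells, against 7.33% with 50. In beta cells thinned to 5500 UMIs, where Glp1r was added, it was 9.49%. With a minimum of 100 UMIs this share was lower in each type than with 50. Thinning turned the direction of Chrm3 in PP cells (0.16, on 11 UMIs), and the cause was not tested. Ratios not past 1.5-fold changed sign too, among them Gipr in beta cells (-0.44 to 0.48 over the alternatives). Ffar1 in alpha cells was past 1.5-fold in each alternative. The gate at 10% of UMIs, the counting of Sst cells with Ppy as delta cells and the unscaled totals were chosen after seeing the data. No paired analysis was possible because the labels give 1 sample per group and no replicate numbers. Depth limits delta and PP cells most, where 3 receptors each had 50 UMIs.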
